A study of Homo sapiens with 4 samples.

Results

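The genes described here are 10 members of the BCR-ABL and STAT5 signalling route: ABL1, BCR, the adaptors CRKL and GRB2, the transcription factors STAT5A and STAT5B, and PIM1, PIM2, CISH and SOCS2, which STAT5 is known to activate. They were chosen by name, with earlier results of these data known, as the gene probes that the array files list under these symbols, and no measured value enters the rule. All 10 were found, with 1 probe each, among the 14297 gene probes of the array. K562, a human erythroleukemia line that carries the BCR-ABL fusion, was treated for 4 h with AC-1041, a thalidomide analog that carries a morpholine group on a trifluorophthalimide. Each of 4 two-colour arrays read the RNA of treated against that of control cells, with the treated RNA in Cy5 on arrays 1 and 2 and in Cy3 on arrays 3 and 4. The labels call the control cells untreated, whereas the methods of the study name a DMSO control. No dose is given in the labels, and the study describes the concentration in its methods and in its results in different ways. K562 is 1 cell line, and nothing in the labels says that the arrays came from separate cultures, so the p-values measure the spread between these arrays, which may be technical.

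BCR-ABL is a tyrosine kinase made when the front part of BCR is joined to the kinase part of ABL1. The fused kinase is always active. GRB2 links it to RAS through a phosphorylated tyrosine in the BCR part, and CRKL, an adaptor of SH2 and SH3 domains, is one of its main substrates. STAT5A and STAT5B are phosphorylated downstream of it, move to the nucleus and bind DNA at the palindrome TTCNNNGAA. Among their targets, CISH and SOCS2 encode SH2 proteins that dampen cytokine receptor signalling, and PIM1 and PIM2 encode serine/threonine kinases that favour survival.

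The sequences of 3 probes show which transcripts were read. The ABL1 and BCR probes are given because, by the known structure of these genes, both lie outside the fusion, and the CISH probe because CISH had the largest fall among the members. In the ABL1 probe the capitals mark the start codon. Nothing is capitalised in the other sequences, and all are printed 5′ to 3′ as in the array files.
ABL1: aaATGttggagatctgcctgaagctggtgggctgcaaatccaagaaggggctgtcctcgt
BCR: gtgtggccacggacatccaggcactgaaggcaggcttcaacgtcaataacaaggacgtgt
CISH: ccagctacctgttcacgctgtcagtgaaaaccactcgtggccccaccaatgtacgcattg
The position of the ABL1 probe in hg18 is chromosome 9, from 132700653 to 132700712, on the plus strand, and the files list it for transcript variant a. It holds the start codon at bases 3 to 5 and then an open frame of 19 codons, the start codon included, up to its end, which is the first coding exon of the shorter ABL1 form. That exon is not part of the BCR-ABL transcript, which takes up ABL1 from its second exon on. The BCR probe lies on chromosome 22 between 21983979 and 21985088, a span that holds an intron, in the 3′ part of the gene behind the breakpoint region of chronic myeloid leukemia. The CISH probe is on chromosome 3, from 50620425 to 50620484, on the minus strand. By this known gene structure, which was not checked against an hg18 annotation here, neither the ABL1 nor the BCR probe would read the BCR-ABL fusion transcript.

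Each array held 536 control spots beside the gene probes, and no gene probe was saturated. Probes well above background numbered from 5941 to 7403 per channel on arrays 1 and 2 and from 8982 to 9515 on arrays 3 and 4. The SD of the negative control spots was between 226 and 308 on the former and between 27.8 and 40.5 on the latter. Dye orientation and signal over background thus cannot be told apart. Across the 8852 probes tested, the Pearson correlation of log2 ratios was 0.81 within the first orientation (arrays 1 and 2) and 0.94 within the second. Pairs of arrays from opposite orientations had correlations from -0.29 to -0.12. Of 11 erythroid markers on the array 8 were well above background in both channels of all arrays and none was below it throughout. Among markers of lymphoid, monocytic and epithelial cells, CD79A and EPCAM were above background in both channels of all arrays, and MS4A1, KRT5 and KRT14 on none. Whether those probes read the named genes was not tested.

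Of the 9 members that could be tested, 4 had a lower level in treated cells (CISH, STAT5A, SOCS2 and PIM2), 1 had a higher level (CRKL), and 4 did not pass the test (BCR, GRB2, STAT5B and PIM1). The test was limma on loess-normalized log2 ratios with a term for the dye, at an adjusted p (Benjamini-Hochberg over all 8852 probes) under 0.05. The lower members were 44.4% of those tested and the higher one 11.1%, whereas 13.0% of all probes tested were lower and 24.3% higher. Called in either direction were 5 of the 9 members and 37.4% of all probes. CISH, STAT5A and SOCS2 were below 0 on each array, as were 8.29% of all probes, and 6.13% were also called lower. CRKL was above 0 on each array, as were 15.1%, and 13.0% were also called higher. The median log2 ratio of the 9 members was 0.0067, against 0.02 for all probes tested. In bulk RNA, a lower level per cell cannot be told apart from fewer cells that express the gene. Each SD is over all arrays, whereas the standard errors come from the spread within each dye orientation, since the dye term takes up any difference from one orientation to the other. Without the dye term none of the 9 members passed (limma), and 1 higher and 3 lower members had an unadjusted p under 0.05. In that fit 0.0448% of all probes were lower and 0.582% higher. With 4 arrays a two-sided exact sign-flip test of 1 gene has a smallest p of 0.125, so it could not pass.

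CISH, an inhibitor of cytokine receptor signalling whose transcription is a common readout of active STAT5, had the largest fall. Its normalized level in control cells was 11.15, 11.39, 11.45 and 11.58 (log2 intensity) on arrays 1, 2, 3 and 4. In treated cells it was 10.76, 11.12, 10.78 and 10.64 on the same arrays. All 4 treated levels lay below all 4 control levels. The log2 ratios were -0.39, -0.28, -0.68 and -0.94, a mean of -0.57 ± 0.30 (SD, n = 4 arrays), so that control cells had 1.49 times the level of treated cells. The standard error from limma was 0.072, with an adjusted p of 0.000547. Of the log2 ratios of all probes tested, 1.3% were as low or lower. The fall was smaller with the treated RNA in Cy5 (mean -0.33) than with it in Cy3 (mean -0.81), a difference that passed the test of the dye term (limma adjusted p = 0.0214). Without the dye term the limma adjusted p of CISH was 0.165.

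STAT5A, one of the STAT5 transcription factors themselves, also fell. In control cells its normalized level was 13.05, 12.44, 13.07 and 13.00 on arrays 1 to 4, and in treated cells 12.68, 12.18, 12.52 and 12.36. The treated level was lower within each array, although array 2 was low in both channels and the groups overlapped. The log2 ratio was -0.46 ± 0.17 (SD, n = 4 arrays), with a limma standard error of 0.065 and an adjusted p of 0.00106. Single arrays gave -0.37, -0.26, -0.56 and -0.64. The dye term did not pass the test for this gene (limma adjusted p = 0.0932), and without that term the adjusted p of STAT5A was 0.168. The probe is on chromosome 17 of hg18, from 37717009 to 37717068.

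STAT5B, the neighbouring and closely related gene, gave no call. Its log2 ratios were 0.17 and 0.64 on arrays 1 and 2 and -0.57 and -0.22 on arrays 3 and 4. They changed sign with the dye orientation, and the dye term passed the test (limma adjusted p = 0.00728). The estimate was 0.0067 with a standard error of 0.096 (limma adjusted p = 0.963). On array 2 the spot was not well above background in either channel. The difference between STAT5A and STAT5B was not tested.

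SOCS2, a feedback inhibitor of growth hormone and other cytokine receptors, fell on every array. Its normalized level was 12.97, 12.85, 12.45 and 12.66 in control cells and 12.51, 12.11, 12.29 and 12.42 in treated cells on arrays 1 to 4. The lowest control level, on array 3, was below the highest treated one, on array 1, so the groups overlapped while each array went the same way. The log2 ratios were -0.46, -0.74, -0.16 and -0.23, a mean of -0.40 ± 0.26 (SD, n = 4 arrays). The standard error from limma was 0.073, with an adjusted p of 0.00336. In contrast to CISH, the fall was larger with the treated RNA in Cy5 (mean -0.60) than in Cy3 (mean -0.20), and the dye term passed the test (limma adjusted p = 0.0397). Leaving out array 4 (limma adjusted p = 0.0536) or the dye term (0.288) ended the call for SOCS2.

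**Figure D1:**
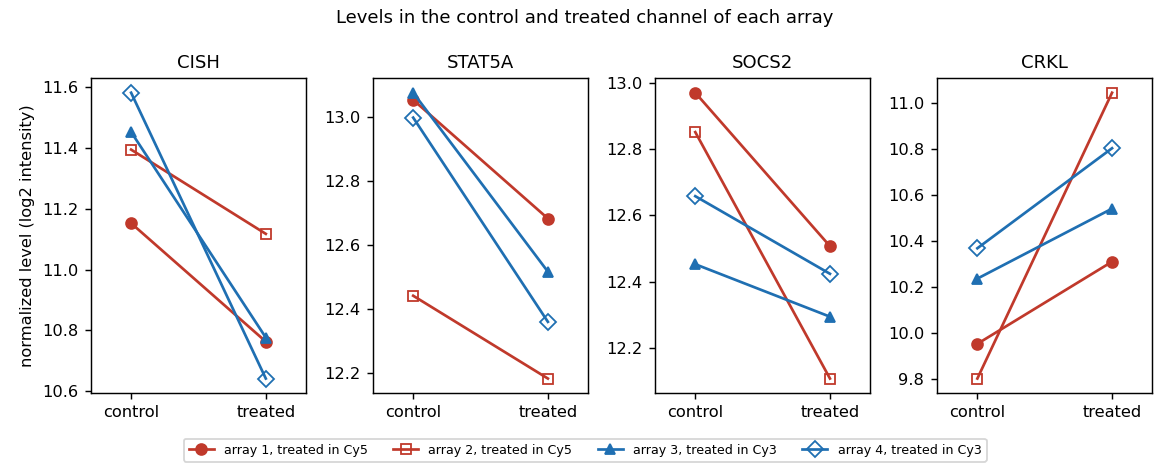
Normalized level (log2 intensity, y axis) of CISH, STAT5A, SOCS2 and CRKL in the control and the treated channel (x axis), with 1 line per array and a y axis of its own for each gene. Lines fall from control to treated on all 4 arrays for the first 3 genes and rise on all 4 for CRKL, most on array 2.

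Of the PIM kinase genes, PIM2 was called lower and PIM1 was not called. PIM2 had log2 ratios of 0.01 and -0.11 on arrays 1 and 2 and of -0.30 and -0.66 on arrays 3 and 4, so it was close to 0 with the treated RNA in Cy5. Its estimate was -0.27 ± 0.29 (SD, n = 4 arrays), at a limma adjusted p of 0.0292 and a standard error of 0.079. Without array 4 the estimate was -0.18 (limma adjusted p = 0.277), and PIM2 was not past the threshold without the dye term either (0.513). The PIM1 spot on array 1 was marked as an outlier and left out, so that 3 arrays were fitted. Array 2 gave 0.37, array 3 -0.25 and array 4 -0.03. The estimate of 0.11, with a standard error of 0.090, did not pass the test (limma adjusted p = 0.354). The difference between PIM1 and PIM2 was not tested.

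CRKL, the SH2-SH3 adaptor whose phosphorylation is used as a measure of BCR-ABL activity, was the member that rose. In control cells its normalized level was 9.95, 9.80, 10.24 and 10.37 on arrays 1 to 4, and in treated cells 10.31, 11.05, 10.54 and 10.80. The treated level was higher within each array, and the highest control level, on array 4, lay above the lowest treated one, on array 1. The log2 ratios were 0.36, 1.24, 0.30 and 0.44, with an estimate of 0.59 ± 0.44 (SD, n = 4 arrays), a 1.5-fold rise. The standard error from limma was 0.13, with an adjusted p of 0.0079. Array 2 stood apart, and there the control spot was not well above background. Without array 2 the estimate was 0.36 (limma adjusted p = 0.00228), without array 4 it was 0.55 (0.0745), and without the dye term the adjusted p was 0.255. The mRNA level measured here says nothing of CRKL phosphorylation.

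GRB2, the adaptor that couples BCR-ABL to RAS, gave log2 ratios of 0.51 and 0.45 on arrays 1 and 2 and of -0.42 and -0.47 on arrays 3 and 4. Treated cells were thus higher with their RNA in Cy5 and lower with it in Cy3, by similar amounts. The estimate was 0.02 with a standard error of 0.064 (limma adjusted p = 0.849), and the dye term passed the test (0.000528). BCR followed the same order, with 0.26 and 0.73 on arrays 1 and 2 and -0.20 and -0.39 on arrays 3 and 4. Its estimate was 0.10 with a standard error of 0.088 (limma adjusted p = 0.404), and it was not well above background on array 2. An effect of the dye was called for 7 of the 9 members tested and for 58.2% of all probes.

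**Figure D2:**
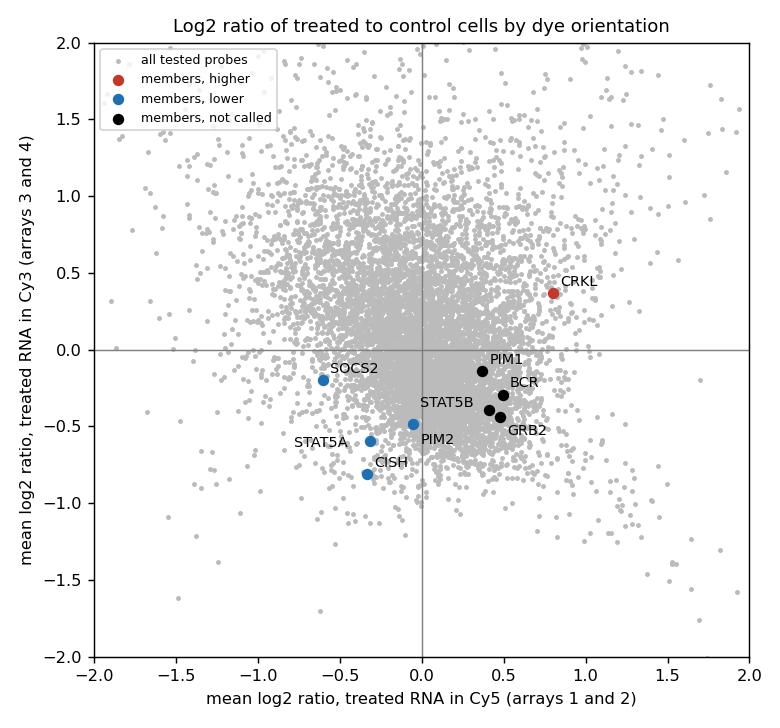
Mean log2 ratio of treated to control cells with the treated RNA in Cy5 (arrays 1 and 2, x axis) against that with it in Cy3 (arrays 3 and 4, y axis). Grey points are the tested probes within the axes, with 61 probes outside them, and coloured points are the 9 tested members. CISH, STAT5A, SOCS2 and PIM2 lie in the lower left quadrant and CRKL in the upper right, where both orientations agree in sign, and the 4 members that were not called lie in the lower right.

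ABL1 was not well above background in either channel on any array and was left out of the test. Its spot means in treated cells were 187, 255, 172 and 171 on arrays 1 to 4 and in control cells 254, 215, 172 and 162, over local backgrounds between 63 and 75. The log2 ratios of -0.32, 0.02, -0.20 and -0.04 are those of a dim spot in both groups and give no fold. As described above, this probe holds the start codon of ABL1.

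A promoter sequence from RefSeq (GRCh38.p14) was at hand for 9 of the 10 members, and SOCS2 had none. The TTCNNNGAA palindrome, which reads the same on both strands, was searched in the 250 bases before each transcription start. It was found 4 times before CISH and in none of the other 10 windows of members, those of PIM1 and PIM2 included. Of 35116 windows of the same length over all genes, 6.57% held at least 1 copy, 0.356% at least 2 and 0.0142% (5 windows) at least 4. The CISH window, chr3:50611775-50612024 on the minus strand, is shown as the only member window that held a match, and those of PIM1 and PIM2 are not printed. Whether the matches bear on the fall of CISH was not tested. Capitals mark the matches, which do not overlap and start 241, 230, 129 and 112 bases before the transcription start.
CISH promoter: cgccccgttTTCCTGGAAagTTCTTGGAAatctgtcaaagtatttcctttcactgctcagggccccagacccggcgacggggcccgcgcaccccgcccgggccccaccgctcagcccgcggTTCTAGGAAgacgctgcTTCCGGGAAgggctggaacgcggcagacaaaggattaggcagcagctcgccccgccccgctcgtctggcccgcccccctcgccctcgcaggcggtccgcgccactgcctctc
A match to these letters is a description of the sequence, and no binding was measured.

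Other genes of the route were taken from 3 lists, with 61 of 63 genes on the array and 50 tested, of which 13 were higher and 9 lower in treated cells. These are 26% and 18% of those tested, against the shares of all probes given above. Among 10 tested of 13 other STAT5 targets, 4 were lower (CCND1, ID1, CCND3 and BCL2L1) and 1 was higher (BCL6), and their median log2 ratio was -0.14. BCL6, a transcriptional repressor whose own gene STAT5 is known to repress, had log2 ratios of 0.69, 0.61, 1.28 and 1.62 on arrays 1 to 4. Its estimate was 1.05 ± 0.48 (SD, n = 4 arrays, limma adjusted p = 4.15e-05), and treated cells were higher on every array. CCND1, which encodes cyclin D1, had -0.56, -0.94, -0.79 and -0.71, an estimate of -0.75 ± 0.16 (SD, limma adjusted p = 0.000229), but its probe was dim, passing the background in control cells on 2 arrays and in treated cells on 1. BCL2L1, which encodes the survival protein BCL-XL, had an estimate of -0.28 ± 0.19 (SD, limma adjusted p = 0.0136), with all arrays below 0, and was above background on 2 arrays in each channel. ID1 and CCND3 were named after their values were seen, to complete the count. ID1, an inhibitor of bHLH transcription factors, had -1.39, -0.57 and -1.18 on arrays 2, 3 and 4, with the array 1 spot left out as marked, and an estimate of -1.13 (limma adjusted p = 0.00052). CCND3, encoding cyclin D3, had an estimate of -0.32 (limma adjusted p = 0.00696) and was just above 0 on array 3, at 0.026. Without array 4 neither CCND3 (limma adjusted p = 0.0991) nor BCL2L1 (0.0947) passed, and without array 3 BCL2L1 did not pass (0.112). MYC, also named after its values were seen, had 0.98, 0.67, -0.93 and -0.93 on arrays 1 to 4 and did not pass the test (limma adjusted p = 0.609).

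**Figure D3:**
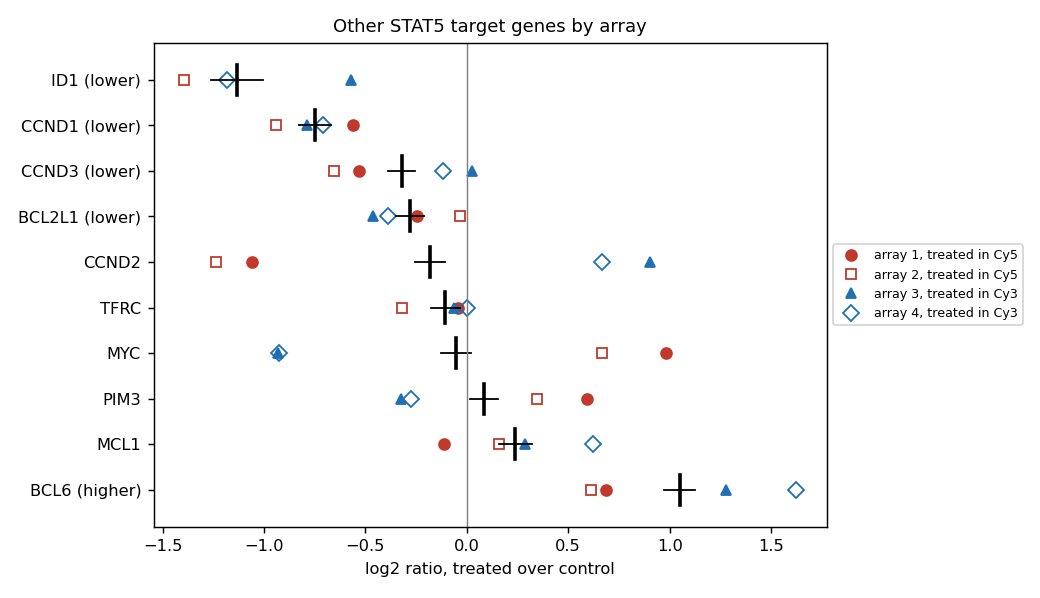
Log2 ratio of treated to control cells (x axis) for the 10 tested genes of the list of other STAT5 targets (y axis), with 1 symbol per array, thick bars for the limma estimates and thin lines for 1 SE. BCL6 is to the right of 0 on all arrays, CCND1 and BCL2L1 to the left on all, and MYC, PIM3 and CCND2 change side with the dye orientation.

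Of 22 tested genes for JAK kinases, other STATs, their receptors and negative regulators, 6 were higher and 4 lower (27.3% and 18.2%, against 24.3% and 13.0% of all probes), with a median log2 ratio of 0.05. The higher ones, named after their values were seen except for SOCS4, were STAT2, SOCS4, SOCS6, SOCS7, PIAS3 and the erythropoietin receptor gene EPOR, with estimates between 0.22 and 0.41. Of these, SOCS4, SOCS7 and EPOR were above 0 on every array. SOCS6 had -0.34 and -0.24 on arrays 1 and 2 but 1.11 and 0.88 on arrays 3 and 4, and STAT2 and PIAS3 were below 0 on array 3 (-0.033 and -0.10). KIT, the stem cell factor receptor, had -0.85, -0.61, -0.60 and -0.72 on arrays 1 to 4 and an estimate of -0.70 ± 0.12 (SD, n = 4 arrays, limma adjusted p = 0.000208). Its probe was dim, passing the background in treated cells on 1 array and in control cells on 2. SOCS1, an inhibitor of JAK kinases, had an estimate of -0.37 ± 0.21 (SD, limma adjusted p = 0.0132) with all arrays below 0, whereas SOCS4 was at 0.34 ± 0.23 (SD, limma adjusted p = 0.00498) with all above 0. The other genes called lower, named here to complete the count, were JAK2 and PIAS2. JAK2, the kinase of the erythropoietin receptor, was below 0 on arrays 1 and 2 (-0.63 and -0.85) and above 0 on arrays 3 and 4 (0.09 and 0.26), at a limma adjusted p of 0.016. PIAS2, a SUMO ligase that binds STAT proteins, had an estimate of -0.28 (limma adjusted p = 0.0168). Without array 4 the limma adjusted p was 0.15 for SOCS1, 0.0757 for SOCS4, 0.0783 for JAK2 and 0.0633 for PIAS2, and with median centring the estimates were -0.24 for SOCS1 and -0.16 for both JAK2 and PIAS2, all past the threshold no longer. Without array 3 the calls of JAK2 (limma adjusted p = 0.14) and PIAS2 (0.156) also ended, and that of JAK2 ended with processed signals (0.064) and the series table (0.0698).

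Of 18 tested genes for BCR-ABL partners and the RAS and PI3K arms, 6 were higher and 1 was lower (33.3% and 5.56%, against 24.3% and 13.0% of all probes), with a median log2 ratio of 0.06. The higher ones included DOK1, PIK3CA and GAB2 and, named after their values were seen, ABI1 and ABL2, with estimates between 0.24 and 0.90. ABI1 was below 0 on arrays 1 and 2 (-0.15 and -0.14) and above 0 on arrays 3 and 4 (0.88 and 1.07), and ABL2 was below 0 on array 1 (-0.025). DOK1, a docking protein that ABL kinases phosphorylate and that restrains RAS signalling, had log2 ratios of 0.94, 1.24, 0.62 and 0.82 on arrays 1 to 4. Its estimate was 0.90 ± 0.26 (SD, n = 4 arrays, limma adjusted p = 8.79e-05), and it was well above background in both channels of all arrays. PIK3CA, the catalytic subunit of PI3K alpha, had an estimate of 0.48 ± 0.14 (SD, limma adjusted p = 0.00153), above 0 on every array. GAB2, the scaffold that GRB2 brings to BCR-ABL, had 0.45 and 0.48 on arrays 1 and 2 but 0.015 and 0.0093 on arrays 3 and 4 (limma adjusted p = 0.0194). HRAS, named to complete the count, was the gene called lower, at -0.26 (limma adjusted p = 0.0198), and was above 0 on array 2, at 0.023. Without array 4 neither GAB2 (limma adjusted p = 0.145) nor HRAS (0.189) passed, nor did they without array 3 (0.125 and 0.079). GAB2 did not pass with processed signals (0.0636) or the series table (0.0586) either, nor HRAS with median centring (estimate -0.15, limma adjusted p = 0.237). Without the dye term none of the 52 pathway genes that could be fitted passed (limma), with 4 higher and 4 lower at an unadjusted p under 0.05.

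The probes nearest to a member over the 4 log2 ratios, by Euclidean distance among 7991 probes measured on all arrays, were sought for the strongest called member in each direction. For CISH they were ELMO3 (distance 0.062), GATA1 (0.067) and EXOSC4 (0.12). GATA1, the erythroid transcription factor, had -0.35, -0.24, -0.71 and -0.93 on arrays 1 to 4, beside the values of CISH given above. For CRKL they were VPS37D (0.10), HYPE (0.15) and ZNF202 (0.20), each with its highest value on array 2.

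**Figure D4:**
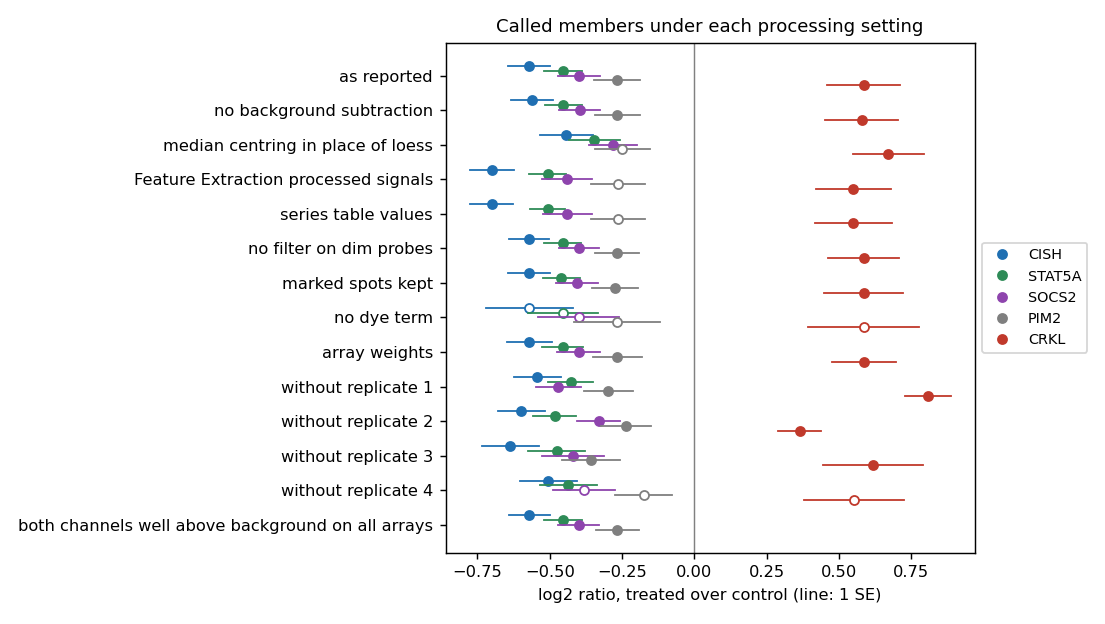
Log2 ratio of treated to control cells (x axis) with 1 SE for the 5 called members under each processing setting (y axis). Filled points are past an adjusted p of 0.05 and open points are not. All estimates keep their side of 0, all are open without the dye term, and CRKL has no point with both channels above background on all arrays because that filter removes it.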

How the data were processed

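Human two-colour Agilent arrays were scanned by the authors and quantified with Feature Extraction 9.5.1.1, and the deposited files hold spot and local background intensity in each channel without normalization. Deposited beside them are processed intensity values, which the scanner software had freed of background and dye bias, and their log10 ratio (Cy5 over Cy3). The series table of the authors, also in log10, gives treated over control, since 99.9% to 100% of the 14297 values of each array matched the scanner ratio to 0.001 once arrays 3 and 4 were turned. The median of each of its columns was 0.

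Normexp (offset 50, all spots) was used for background correction of the intensities, and loess (span 0.3, gene probes) for normalization within arrays. Spots marked as non-uniform or population outliers, 1.57% to 8.08% per array, were left out. A probe entered the fit if it was well above background on 2 or more arrays, in 1 channel or both, and unmarked on 3 or more. The fit, with terms for treatment and dye, was made with limma 3.58.1 (R 4.3.3). Levels per channel were scaled between arrays on mean intensity (Aquantile). All arrays lay on 1 slide with 1 scan time. The fit was tested on simulated data. Alternatives were other background corrections, normalizations and filters, the series table, array weights, no dye term and each array left out. The number of arrays limits the precision. Probe positions are those of the files. Of other pathway genes, up to 3 per list were named by size among those called with the same sign on all arrays. Some results are not reported here. The members and lists were chosen with earlier results of these data known.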

Additional observations from a re-analysis of the deposited data

Results flagged for a closer look

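CRKL had 1 array far from the other three. Its log2 ratio was 1.24 on array 2 and 0.30 to 0.44 on the others, and the gap above the next array was 0.861 of the whole range, over Dixon's critical value of 0.829 for 4 arrays. Of 23 genes looked at in this way, CRKL alone passed, and chance marks about 1 in 20. On array 2 the CRKL control spot was not well above background, and the part of this in the result was not tested.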

How the results depend on the processing

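The falls of CISH, STAT5A, SOCS2 and PIM2 and the rise of CRKL kept their direction in all settings that could be run. The choice that mattered most was the dye term, which counts the difference between orientations as dye and not as error. Without it 0 members were higher and 0 lower (limma), and 0 other pathway genes were higher and 0 lower. When a probe had to pass the background in both channels of every array, 0 members were higher, since CRKL was no longer tested (0 at an unadjusted p under 0.05). With that filter 8 of 31 other pathway genes tested were higher, as were 24% of all probes. With median centring 5 of 50 other pathway genes tested were lower, as were 6.73% of all probes. In that setting 79.9% of all called probes were higher, against 65.2% with loess. PIM2 was not past the threshold with median centring (limma adjusted p = 0.0571), processed signals (0.0872) or the series table (0.0909). Of members not called, GRB2 became -0.035 with processed signals and -0.035 with the series table, and PIM1 -0.071 with median centring, where MYC became 0.063. Their causes were not tested.

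Without each array in turn, 0 to 2 members were higher and 2 to 4 lower, and 5 to 16 other pathway genes were higher and 2 to 11 lower. Of all probes, 12.6% to 29.4% were then higher and 3.54% to 16.7% lower. Without array 4, 0 members were higher (limma; 1 at an unadjusted p under 0.05) and 2 lower, with 6 and 2 of the others, and without array 3 there were 5 and 4 of the others. The shares of all probes were 12.6% higher and 3.54% lower without array 4, and 15.5% and 5.48% without array 3. With all arrays they were 24.3% and 13.0%. BCR ranged from -0.015 to 0.22, and was called without array 1 (limma adjusted p = 0.0284), STAT5B from -0.11 to 0.12, and MYC from -0.13 to 0.026. A block for slide or scan could not be fitted, as each was the same for all arrays. Dim signal limits BCR, STAT5B and CRKL on array 2, and KIT, CCND1, BCL2L1 and SOCS4, which passed the background on at most 2 arrays in each channel.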
